A study of Mus musculus with 12 samples.

Results

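The genes described here encode the secreted Wnt ligands, their Frizzled and Lrp receptors, the secreted antagonists that bind either side, the R-spondins that raise receptor levels, and the first intracellular steps (beta-catenin, the Axin scaffolds and the transcription factors Lef1 and Tcf7). They were chosen by gene name on the array: names beginning with Wnt, Fzd or Sfrp and a digit, with Dkk or Rspo, or with Axin1 or Axin2, and Lrp5, Lrp6, Lef1, Tcf7, Frzb, Wif1 and Ctnnb1. This gave 51 genes, covered by 71 probes, of 27599 gene names. Of these 51 genes, 33 were tested, because a probe of theirs was well above background on 4 or more of the 12 arrays, among 17073 genes tested in all.

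Kidney tubules in suspension were sorted on a COPAS large-particle sorter into 3 fractions, each taken from the same 4 mice. EGFP+ tubules carry green fluorescence. By the labels they come from the distal convoluted tubule (DCT), which follows the thick ascending limb and reabsorbs sodium chloride. ALL is the total tubule fraction and EGFP- the tubules without fluorescence. Mice 1 and 3 were female and mice 2 and 4 male, so that n = 4 mice per fraction and 2 mice per sex. The mice of every fraction are the same EGFP-carrying animals; the labels name neither the promoter that drives EGFP nor a strain or age, and no animals without EGFP were used. Each array was hybridised with the Cy3-labelled RNA of 1 fraction of 1 mouse.

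Levels are log2 values of the processed signal minus the 75th percentile of the array, so that 0 is the upper quartile of an array, and a difference of 1 is a doubling. That percentile ran from 922.2 to 2269.8 over the 12 arrays, and 53.92% to 65.59% of probes were well above background. Levels of one gene's probe were not compared with those of another gene's. All 6 DCT markers were higher in EGFP+ than in EGFP- tubules, with Slc12a3, the thiazide-sensitive cotransporter, differing by 8.37, and their summed linear level was 410 to 524 times the upper quartile in EGFP+ against 23.6 to 35.1 times in EGFP- tubules. Pvalb, the parvalbumin gene, was well above background on none of the EGFP- arrays. Of 5 markers of the thick ascending limb, 4 were also higher in EGFP+ tubules (Kcnj1 by 3.46, Umod by 1.93, Cldn16 by 1.58 and Slc12a1 by 0.75), and Cldn10 was lower (-5.05). A summed level was taken over the 3 of these 5 measured on all 12 arrays, Slc12a1, Cldn10 and Cldn16. It was 24.9 to 32.3 in EGFP+ and 39.1 to 47.2 in EGFP- tubules, and of these 3 genes only Cldn10 was lower in EGFP+ tubules (mean -0.46 against 4.59). The sum leaves out Kcnj1 (mean level 7.55 in EGFP+ and 4.09 in EGFP- tubules) and Umod (7.84 and 5.91), both higher in EGFP+ tubules. The part of this segment in the results that follow was not tested.

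Wnt ligands are lipid-modified proteins that bind Frizzled receptors together with Lrp5 or Lrp6, which stops the Axin and Apc complex from marking beta-catenin for breakdown. Stabilised beta-catenin enters the nucleus and acts with factors of the Lef and Tcf family, while other Wnts act through Frizzleds on cell polarity without beta-catenin. In the kidney, Wnt9b from the ureteric bud and Wnt4 from the condensing mesenchyme drive the formation of nephrons in development, and Wnt signals recur after injury.

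The sequences of 4 probes are shown because they belong to related genes whose results differed by gene or by probe. Wnt5a and Wnt5b are close relatives with opposite differences, and the probes of Fzd2 and Fzd7 overlap in sequence. The probes are printed 5′ to 3′ as the array files give them, 60 bases each, with positions in the mm8 mouse genome: Wnt5a at chr14:27345426-27349388 on the plus strand, where the 60 bases span 3963 positions and so read across a gap, Wnt5b at chr6:119405921-119405980 on the minus strand, Fzd2 at chr11:102422389-102422448 on the plus strand and Fzd7 at chr1:59429069-59429128 on the plus strand. Capitals mark bases that are identical between the Fzd2 and Fzd7 probes when they are aligned, 42 of 50 aligned bases (84.0%).
Wnt5a: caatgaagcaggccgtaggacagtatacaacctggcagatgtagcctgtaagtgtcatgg
Wnt5b: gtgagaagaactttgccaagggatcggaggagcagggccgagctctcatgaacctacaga
Fzd2: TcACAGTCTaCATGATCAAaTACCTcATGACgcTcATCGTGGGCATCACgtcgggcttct
Fzd7: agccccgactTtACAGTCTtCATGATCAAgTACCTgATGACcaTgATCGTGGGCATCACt

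Promoters of Axin2 and Lef1 are shown because both genes are known targets of beta-catenin signalling and both were lower in EGFP+ tubules. The 250 bases before a start were read from RefSeq for GRCm38.p6, at chr11:108920099-108920348 for Axin2 and at chr3:131156044-131156293 for the Lef1 start whose window held a match, both on the plus strand. They were searched on both strands for the core of the Lef and Tcf motif, spelled CTTTGAA, or with other endings CTTTGAT, or else CTTTGTA, or finally CTTTGTT, and capitals mark a match. The 4 words share their first 5 letters, so that 1 place on a strand can match only 1 of them, and a match describes letters and is not a binding site. The Lef1 window shown was picked for its match. Windows of the other Lef1 starts, at chr3:131110047-131110296, chr3:131110073-131110322 and chr3:131112541-131112790, held none, nor did that of Axin2.
Axin2: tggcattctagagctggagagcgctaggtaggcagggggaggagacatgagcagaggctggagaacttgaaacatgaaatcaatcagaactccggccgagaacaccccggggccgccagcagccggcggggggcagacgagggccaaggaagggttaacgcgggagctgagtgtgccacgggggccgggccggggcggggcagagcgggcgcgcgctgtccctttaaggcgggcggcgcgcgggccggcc
Lef1: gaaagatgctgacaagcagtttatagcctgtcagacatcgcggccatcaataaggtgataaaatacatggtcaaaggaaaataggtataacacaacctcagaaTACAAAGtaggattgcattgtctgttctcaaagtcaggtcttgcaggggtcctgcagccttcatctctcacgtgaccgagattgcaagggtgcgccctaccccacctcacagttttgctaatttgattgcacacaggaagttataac
Of the 51 genes, 34 had at least 1 start in the RefSeq table, with 42 windows in all. A match was found in 5 of these 42 windows (11.9%), against 14.8% of the 32851 windows of all genes in the table. The 5 windows belonged to Dkk1, Fzd7, Lef1, Wnt5b and Wnt11.

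The first question was which Wnt genes differ between the DCT and the other tubules. In EGFP+ against EGFP- tubules, 9 of the 33 tested Wnt genes were higher, 11 were lower and 13 did not pass the threshold (limma, adjusted p at most 0.05), where 58.2% of all genes tested passed, 32.3% higher and 25.9% lower. The share of Wnt genes called, 60.6%, was near that background. The median difference of the Wnt genes was -0.31, also with the 7 genes that have only a bound set at it, against 0.11 over all genes tested. A fitted difference of at least 4-fold was seen for 5 genes that were higher (Sfrp1, Wnt10a, Wnt5a, Fzd6 and Fzd4) and 9 that were lower (Sfrp2, Wif1, Dkk2, Dkk3, Rspo1, Wnt5b, Fzd1, Lef1 and Tcf7), where 18.3% of all genes tested differed as much in either direction. Of these, Wnt5a, Dkk3, Lef1 and Tcf7 have a bound under 4-fold, because no array of their dimmer fraction was well above background. The levels of EGFP+ and EGFP- arrays did not overlap for 18 of the 33 genes, a separation that 55.8% of all genes tested showed. Of the 20 called genes, 19 moved the same way in 4 of 4 mice, and Fzd5 in 3 of 4. These genes were called on the same arrays, so this agreement is not separate support. The share over all called genes was not counted.

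**Figure D1:**
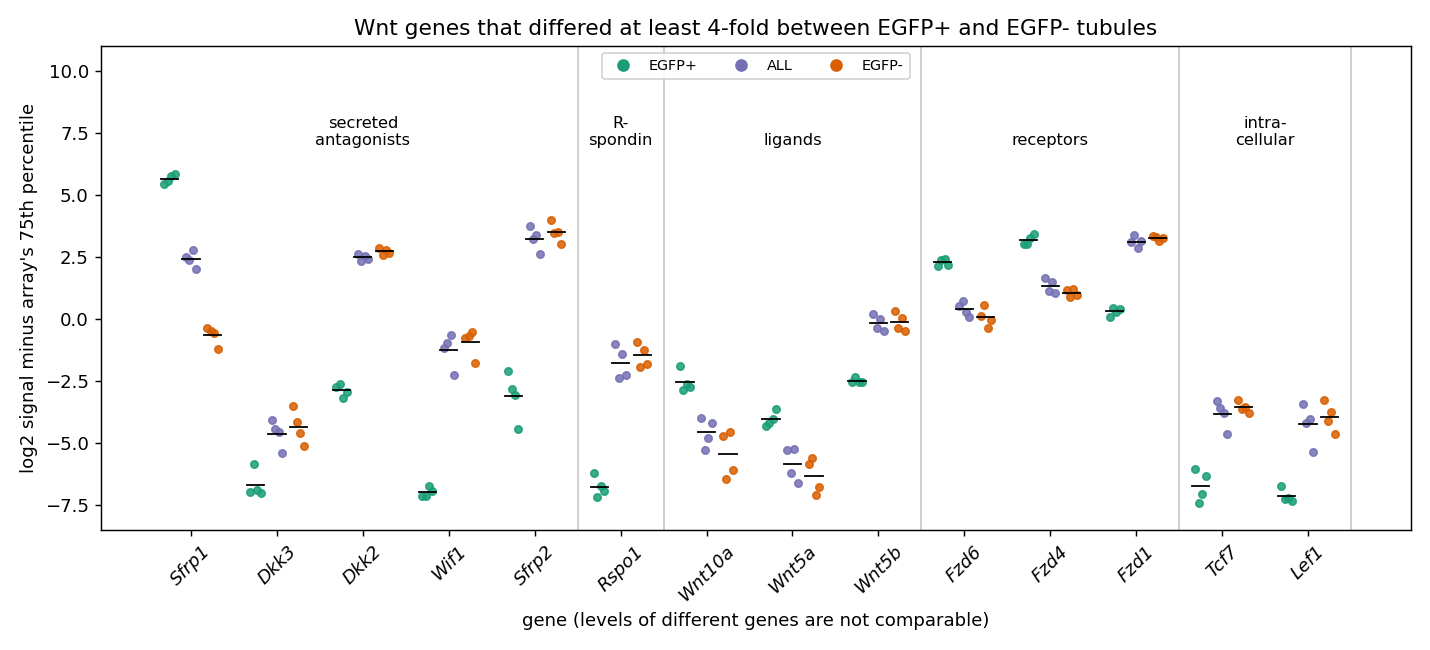
Levels of the 14 Wnt genes with a fitted difference of at least 4-fold between EGFP+ and EGFP- tubules, by gene and role. The scale is log2 relative to each array's 75th percentile. Each point is 1 array (4 mice a fraction) and each bar the mean; Sfrp1 stands at 5.64 in EGFP+ and -0.67 in EGFP- tubules, while Sfrp2, Dkk2, Wif1 and Rspo1 lie far lower in EGFP+ than in both other fractions. With normexp background correction Dkk3 and Lef1 lose their direction, and Tcf7 goes to -0.04 and does not pass the threshold.

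Secreted antagonists held the widest differences in both directions. Sfrp1, a soluble Frizzled-like protein that binds Wnt ligands, was 79.2-fold higher in EGFP+ than in EGFP- tubules. Sfrp2, Wif1 and Dkk2 were lower, and Dkk3 was lower at a dim signal. Of 7 antagonists tested, 1 was higher, 4 were lower and 2 (Frzb and Dkkl1) did not pass the threshold. The share called was 71.4%, against 58.2% of all genes tested (32.3% higher, 25.9% lower).

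Sfrp1 (probe at chr8:24913185-24913244) had levels of 5.43, 5.54, 5.77 and 5.82 in EGFP+ tubules of mice 1 to 4, 2.50, 2.37, 2.77 and 2.0 in ALL, and -0.37, -0.49, -0.59 and -1.21 in EGFP- tubules. The 3 fractions formed separate bands, with every EGFP+ array above every ALL array and every ALL array above every EGFP- array. The difference between EGFP+ and EGFP- tubules was 6.31 ± 0.21 (SE, limma adjusted p = 1.54e-09), and it was 5.86, 6.26 and 6.72 within the 3 array slides. Its second probe gave 6.87. Sfrp1 was also the 1 Wnt gene of 33 past the threshold in ALL against EGFP- tubules, where 1.39% of all genes tested passed, with a difference of 3.07 ± 0.21 (8.41-fold, adjusted p = 1.4e-05). It was the 1 Wnt gene whose ALL and EGFP- arrays did not overlap, as was the case for 2.99% of all genes tested.

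Sfrp2, a relative of Sfrp1 made by stromal cells in many tissues (chr3:83859869-83859928), had levels of -2.12, -2.81, -3.08 and -4.45 in EGFP+ tubules, 3.76, 3.21, 3.36 and 2.61 in ALL, and 3.97, 3.45, 3.52 and 3.03 in EGFP- tubules. Every EGFP+ array lay below all 8 others, while ALL and EGFP- arrays overlapped. The difference between EGFP+ and EGFP- was -6.61 ± 0.43, a 97.4-fold lower level (adjusted p = 9.97e-08). Sfrp1 and Sfrp2, which share their protein fold, thus stood at opposite ends of the Wnt genes.

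Dkk2, one of the Dickkopf proteins that bind Lrp5 and Lrp6 (chr3:132116699-132116758), had levels of -2.73, -2.61, -3.18 and -2.93 in EGFP+ tubules, 2.62, 2.32, 2.55 and 2.40 in ALL, and 2.87, 2.57, 2.77 and 2.67 in EGFP- tubules. It was 47.9-fold lower in EGFP+ than in EGFP- tubules (-5.58 ± 0.14, adjusted p = 6.53e-10), with every EGFP+ array below all others. Wif1, which binds Wnt ligands through its own domain (chr10:120503083-120503142), had levels of -7.15, -7.13, -6.74 and -6.92 in EGFP+ tubules, -1.17, -0.98, -0.64 and -2.26 in ALL, and -0.76, -0.71, -0.52 and -1.80 in EGFP- tubules. It was well above background on none of the EGFP+ arrays and on all of the others. Its level was at least 19.7-fold lower in EGFP+ than in EGFP- tubules, a bound against the dimmest signal well above background on each EGFP+ array (fitted difference -6.04 ± 0.35, adjusted p = 3.95e-08). With normexp background correction, which adds an offset of 50 to the signal before the log, the Wif1 difference was -1.98 (limma adjusted p = 0.0104).

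Dkk3, a divergent Dickkopf relative (chr7:111908495-111908554), had levels of -6.98, -5.86, -6.89 and -7.03 in EGFP+ tubules, -4.07, -4.46, -4.56 and -5.40 in ALL, and -3.50, -4.15, -4.62 and -5.14 in EGFP- tubules. No EGFP+ array was well above background, and the bound was at least 1.87-fold lower (fitted difference -2.34, adjusted p = 2.85e-04). With normexp background correction the Dkk3 difference was 0.42 and did not pass. Dkkl1, a Dickkopf-like protein best known from the testis, had a difference of -0.22 (adjusted p = 0.445). Dkk1 was well above background on 1 ALL array only, and Dkk4, Sfrp4 and Sfrp5 on no array.

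Frzb, also named Sfrp3, a Wnt-binding antagonist of cartilage and other mesenchyme, was divided by sex. In the 2 males, mice 2 and 4, its levels were -3.70 and -4.07 in EGFP+, 0.37 and 1.12 in ALL, and 0.65 and 1.30 in EGFP- tubules. In the 2 females, mice 1 and 3, they were -7.67 and -7.30 in EGFP+, -5.56 and -4.82 in ALL, and -4.95 and -4.86 in EGFP- tubules. Every male array lay above the female arrays of the same fraction, and both female EGFP+ arrays were not well above background. Taken over the mean of the fractions of each mouse, Frzb differed by 5.14 ± 0.21 between males (mean -0.72) and females (mean -5.86), with a limma adjusted p of 0.00661. The difference was 3.37 with normexp background correction. In this fit over the mice Frzb was the 1 Wnt gene of 33 past the threshold, where 1.09% of all genes tested passed. At an unadjusted p under 0.05 there were 4 of the 33 genes (Frzb, Rspo1, Fzd2 and Wnt10a). With normexp background correction 8 passed the adjusted threshold. The share of all genes was counted for neither, so whether these counts exceed it is not known.

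Within the fractions, Frzb was at least 2.55-fold higher in males than in females in EGFP+ tubules (adjusted p = 0.00194), 61.2-fold in ALL (5.93, adjusted p = 5e-05) and 59-fold in EGFP- tubules (5.88, adjusted p = 5.52e-05), in 1 limma fit of 6 groups with 2 arrays each. That fit held no term for the mouse, so its p-values treat the 3 fractions of a mouse as independent. In that fit 1.01% of all genes tested passed within EGFP+ tubules, 9.49% within ALL and 7.46% within EGFP- tubules. Frzb was the 1 Wnt gene past it in EGFP+ tubules, 1 of 3 in ALL and 1 of 4 in EGFP- tubules. Fzd2 was lower in males in ALL (-0.70, adjusted p = 0.0196) and in EGFP- tubules (-0.71, adjusted p = 0.0198), and Rspo1 was lower in males in ALL (-1.11, adjusted p = 0.0196). In EGFP- tubules Wnt5b was lower in males (-0.62, adjusted p = 0.0420), as was Wnt10a, at least 1.42-fold with no male array well above background (adjusted p = 0.0453). In the limma fit over the means of the mice, Fzd2 (adjusted p = 0.178), Rspo1 (0.146), Wnt5b (0.25) and Wnt10a (0.203) did not pass. The EGFP+ minus EGFP- difference of Frzb was -4.35 and -5.37 in the males and -2.72 and -2.44 in the females. Over all 4 mice this was -3.72 ± 1.92 and did not pass the threshold (adjusted p = 0.119), while with the mouse as a block the adjusted p was 1.44e-04. The difference of these values between the sexes was -2.28 and did not pass (limma adjusted p = 0.242). Nor did that of any of the 33 Wnt genes pass the adjusted threshold, where 0% of all genes tested passed it. At an unadjusted p under 0.05 there were 4 of the 33. The share of all genes at that unadjusted level was not counted, so nothing is read from these 4. Within the slides the Frzb difference was -0.73, -7.95 and -2.29, and slide 2 set a female EGFP+ array against a male EGFP- array. With 2 mice per sex, sex and other differences between these mice cannot be told apart.

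**Figure D2:**
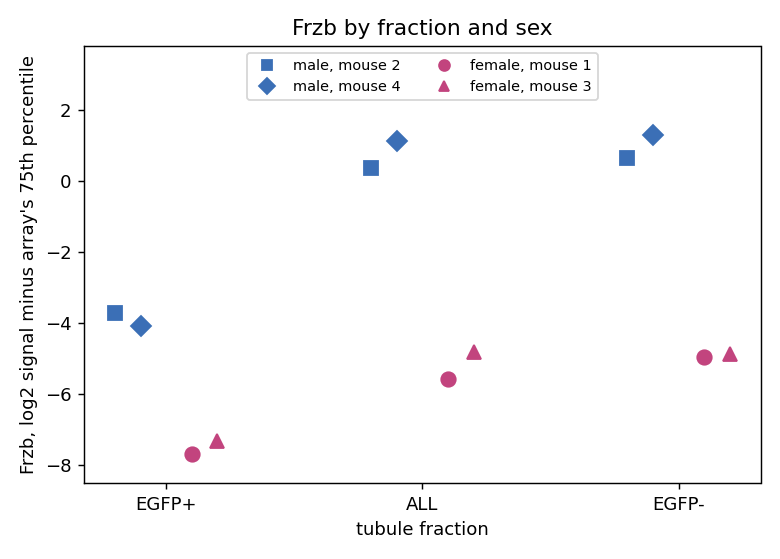
Frzb level by tubule fraction (log2 signal relative to each array's 75th percentile); each symbol is 1 array, squares and diamonds the 2 males, circles and triangles the 2 females. In ALL and EGFP- tubules the males lie at 0.37 to 1.30 and the females at -5.56 to -4.82, and in each fraction both males lie above both females.

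R-spondins, which bind Lgr receptors and protect Frizzleds from the ligases Rnf43 and Znrf3, were represented by Rspo1 (chr4:124511330-124511389). Its levels were -6.22, -7.17, -6.74 and -6.93 in EGFP+ tubules, -1.03, -2.38, -1.43 and -2.28 in ALL, and -0.93, -1.93, -1.24 and -1.81 in EGFP- tubules. No EGFP+ array and all 8 others were well above background. Rspo1 was at least 13.7-fold lower in EGFP+ than in EGFP- tubules (fitted difference -5.29 ± 0.34, adjusted p = 9.5e-08), while with normexp background correction the difference was -1.42 (adjusted p = 0.0139). Rspo2, Rspo3 and Rspo4 were not well above background on any array.

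Markers of several other cell types moved with these antagonists and with Rspo1. All 7 podocyte markers were lower in EGFP+ tubules, with a summed linear level of 1.67 to 2.53 times the upper quartile, against 40.9 to 79.3 in EGFP- tubules. Of 12 markers of mesangium, smooth muscle and fibroblasts, 9 were lower, with sums of 3.82 to 6.10 in EGFP+ against 27.1 to 42.6 in EGFP- tubules, and Pdgfra, Des and Postn were on no EGFP+ array well above background. All 8 endothelial markers were lower as well (5.43 to 7.29 against 59.1 to 97.0), and 5 of 7 leukocyte markers (0.856 to 1.38 against 6.08 to 14.6, with Tyrobp on no EGFP+ array). The 5 markers of parietal epithelium and thin limb had 3 lower and 1 higher, with sums of 3.22 to 4.71 in EGFP+ and 48.0 to 70.6 in EGFP- tubules, and Cldn1 and Bst1 were on no EGFP+ array. Collecting duct principal cells had 6 of 6 lower (2.02 to 3.57 against 31.9 to 36.3). All 8 proximal tubule markers were lower too, with a sum over the 4 measured on all arrays of 2.80 to 6.21 in EGFP+ against 117 to 149 in EGFP- tubules. Of 6 intercalated cell markers, 3 were lower and 3 did not pass (19.0 to 28.5 against 33.5 to 47.3). The part of these cell types in the lower antagonist levels was not tested. In such bulk fractions fewer cells of a type and less RNA per cell cannot be told apart.

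The ligands divided. Wnt10a and Wnt5a were higher in EGFP+ than in EGFP- tubules, Wnt5b and Wnt9b were lower, and 5 of the 9 tested did not pass the threshold. The share of ligands called was 44.4%, against 58.2% of all genes tested (32.3% higher, 25.9% lower). Of the 19 ligand genes on the array, 10 were not tested and 9 of these were not well above background on any array: Wnt2, Wnt2b, Wnt3, Wnt3a, Wnt7a, Wnt8a, Wnt8b, Wnt10b and Wnt16. Wnt1 was well above background on 2 ALL arrays only.

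Wnt10a, a ligand of beta-catenin signalling in skin and teeth (chr1:74737266-74737325), had levels of -1.92, -2.87, -2.63 and -2.76 in EGFP+ tubules, -3.98, -5.28, -4.79 and -4.21 in ALL, and -4.72, -6.44, -4.58 and -6.10 in EGFP- tubules. All EGFP+ arrays lay above all others, and 2 of the 4 EGFP- arrays were well above background. It was 7.53-fold higher (2.91 ± 0.44, adjusted p = 1.33e-04), with a difference of 1.86 under normexp background correction. Wnt5a, a ligand that acts largely without beta-catenin, had levels of -4.32, -4.18, -4.04 and -3.65 in EGFP+ tubules, -5.30, -6.23, -5.25 and -6.63 in ALL, and -5.86, -5.60, -7.10 and -6.77 in EGFP- tubules. It was well above background on all 4 EGFP+ arrays, on 2 ALL arrays and on no EGFP- array. Its level was at least 2.42-fold higher in EGFP+ than in EGFP- tubules (fitted difference 2.28 ± 0.38, adjusted p = 2.97e-04, or 1.41 under normexp background correction).

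Wnt5b, the nearest relative of Wnt5a, went the other way. Its levels were -2.54, -2.34, -2.56 and -2.55 in EGFP+ tubules, 0.21, -0.35, 0.00 and -0.49 in ALL, and 0.32, -0.38, 0.05 and -0.49 in EGFP- tubules, on a probe at chr6:119398613-119398672. Every EGFP+ array lay below all others, and Wnt5b was 5.19-fold lower (-2.37 ± 0.20, adjusted p = 9.24e-07). The second Wnt5b probe, printed above, gave -2.42. Wnt9b, the ureteric bud ligand, was 2.30-fold lower (-1.20 ± 0.24, adjusted p = 0.00117) with levels of -4.57 to -5.30 in EGFP+ and -3.41 to -4.06 in EGFP- tubules, but its difference was 0.31 with normexp background correction and did not pass. It was well above background on 2 EGFP+ arrays and all EGFP- arrays.

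Wnt4, Wnt6, Wnt7b, Wnt9a and Wnt11 did not pass the threshold, with differences of -1.04 (95% confidence interval -2.40 to 0.31), 0.03 (-0.80 to 0.87), -0.28 (-0.82 to 0.25), -0.19 (-0.66 to 0.28) and -0.41 (-0.86 to 0.05). Wnt9a, known from cartilage and joints, was the 1 ligand of these 5 that was well above background on all 12 arrays. Wnt4, Wnt6, Wnt7b and Wnt11 were near background, with 1 or 2 of the 4 EGFP+ arrays well above it. Wnt11, a ligand of the ureteric bud tips in the embryo, passed with the mouse as a block (adjusted p = 0.0448). With the slide as a block Wnt4 (-1.45, adjusted p = 0.0120), Wnt7b (-0.45, adjusted p = 0.0194) and Wnt11 (-0.52, adjusted p = 0.00725) passed as lower.

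Of 11 receptors tested, 5 Frizzleds were higher in EGFP+ than in EGFP- tubules (Fzd6, Fzd4, Fzd3, Fzd8 and Fzd5), Fzd1 was lower, and 5 did not pass. The share called, 54.5%, was near the 58.2% of all genes tested, among which higher genes also outnumbered lower ones. Fzd9 was well above background on none of the 12 arrays. Frizzleds are the membrane receptors that take up Wnt ligands by their cysteine-rich domain.

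Fzd4, which also serves as receptor for norrin in retinal vessels (chr7:89284160-89284219), had levels of 3.0, 3.01, 3.27 and 3.42 in EGFP+ tubules, 1.65, 1.11, 1.49 and 1.04 in ALL, and 1.16, 0.89, 1.20 and 0.97 in EGFP- tubules. Fzd6, which takes part in hair patterning and planar polarity (chr15:38867635-38867694), had levels of 2.12, 2.38, 2.43 and 2.17 in EGFP+ tubules, 0.52, 0.73, 0.28 and 0.08 in ALL, and 0.12, 0.57, -0.35 and -0.03 in EGFP- tubules. For both genes every EGFP+ array lay above all others. Fzd4 was 4.34-fold higher (2.12 ± 0.16, adjusted p = 3.72e-07) and Fzd6 4.59-fold higher (2.20 ± 0.20, adjusted p = 1.66e-06) in EGFP+ than in EGFP- tubules.

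Fzd3 was 2.77-fold higher (1.47 ± 0.19, adjusted p = 3.04e-05) and Fzd8 2.38-fold higher (1.25 ± 0.17, adjusted p = 6.55e-05). The second Fzd8 probe gave 1.84. The second Fzd3 probe was well above background on no EGFP- array, and its bound was at least 2.46-fold higher (adjusted p = 4.24e-04). Fzd5 was 1.40-fold higher (0.49 ± 0.15, adjusted p = 0.0162), with overlapping levels of -0.61, -0.34, -0.03 and -0.03 in EGFP+ and -0.57, -0.64, -1.01 and -0.75 in EGFP- tubules. Its call was lost without mouse 3 (adjusted p = 0.150) and without mouse 4 (adjusted p = 0.0814).

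Fzd1 ran against the other Frizzleds that passed (chr5:4760009-4760068). Its levels were 0.06, 0.43, 0.29 and 0.41 in EGFP+ tubules, 3.09, 3.36, 2.86 and 3.12 in ALL, and 3.34, 3.31, 3.14 and 3.25 in EGFP- tubules. It was well above background on all 12 arrays, and EGFP+ arrays lay below all others. Fzd1 was 7.80-fold lower (-2.96 ± 0.13, adjusted p = 5.36e-09).

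Fzd2 and Fzd7, a pair of close relatives, gave different answers by probe. The brighter Fzd2 probe, printed above, had levels of -1.07, -1.09, -1.12 and -1.05 in EGFP+ tubules, and -0.14, -0.77, -0.28 and -1.07 in EGFP- tubules. Its difference of -0.52 ± 0.23 did not pass (adjusted p = 0.0746) but did with the mouse as a block (adjusted p = 0.0228) and with the slide as a block (-0.61, adjusted p = 0.0401). The second Fzd2 probe was well above background on no EGFP+ array and all EGFP- arrays, and its bound was at least 2.85-fold lower (adjusted p = 1.48e-05). For Fzd7 the brighter probe had a difference of -0.33 (adjusted p = 0.121) and the second probe, printed above, -1.21 (adjusted p = 0.0164), with 1 EGFP+ array and 3 EGFP- arrays well above background. With the mean of the probes in place of the brighter one, both genes were lower in EGFP+ tubules, with differences of -1.52 for Fzd2 (adjusted p = 2.37e-04) and -0.77 for Fzd7 (adjusted p = 0.0194), values that rest in part on these dim second probes. Whether the Fzd2 and Fzd7 probes with the shared stretch also took up the other gene's transcript was not tested.

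Lrp5 and Lrp6, the coreceptors that pass the Wnt signal to Axin, and Fzd10 did not pass the threshold. Lrp5 had a difference of 0.18 (95% confidence interval -0.08 to 0.45) and Lrp6 of -0.31 (-0.80 to 0.18), both well above background on all 12 arrays, and Lrp5 passed with the arrays centred on their medians (0.34, adjusted p = 0.0361). Fzd10 had -0.13 (-0.54 to 0.28) near background, and its sign turned with the arrays centred on their medians and with quantile normalization, to 0.03 in both.

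**Figure D3:**
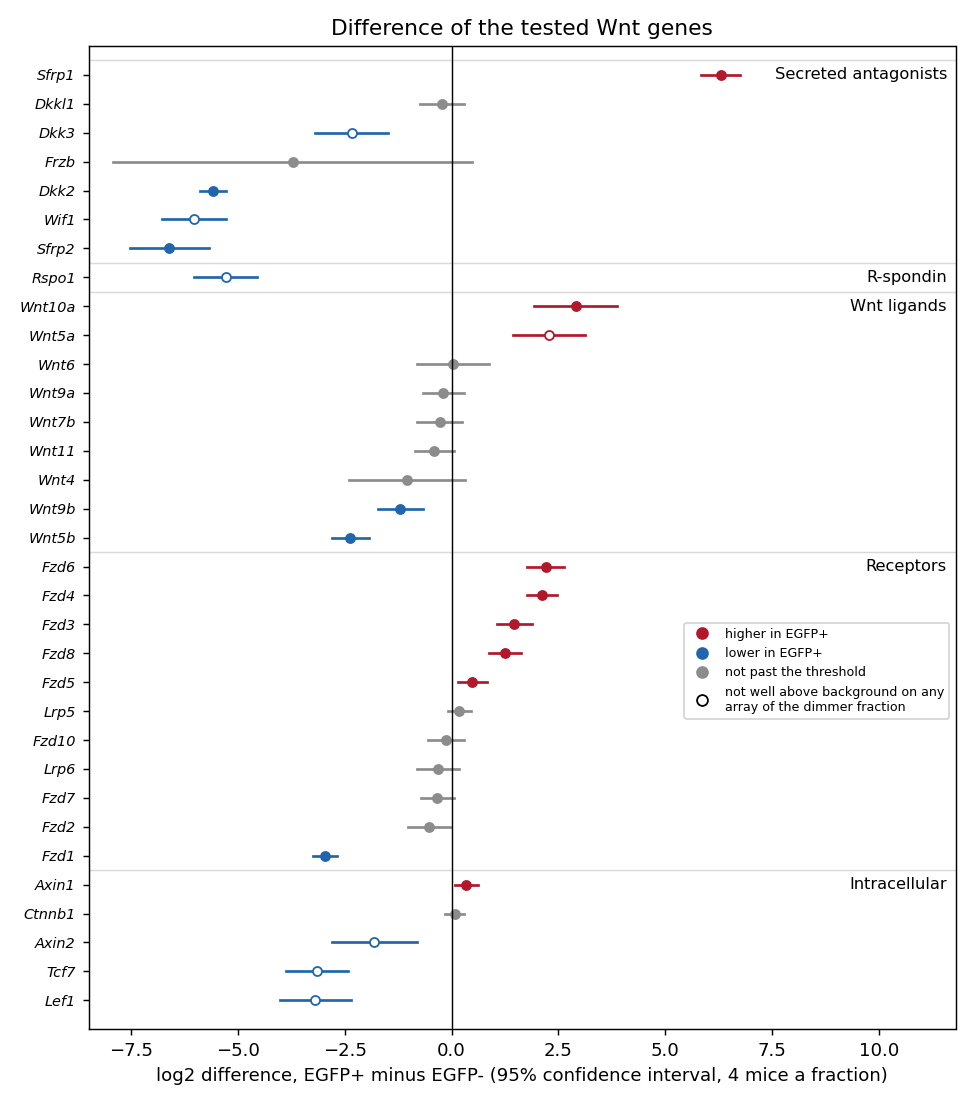
Difference of each of the 33 tested Wnt genes between EGFP+ and EGFP- tubules (log2, EGFP+ minus EGFP-) with its 95% confidence interval from the limma fit, by role. Red genes were higher and blue genes lower in EGFP+ tubules, grey genes did not pass the threshold, and open circles mark genes with no array of the dimmer fraction well above background; the range runs from -6.61 for Sfrp2 to 6.31 for Sfrp1. With normexp background correction Axin2, Dkk3, Lef1 and Wnt9b turn sign among the called genes, and Ctnnb1, Dkkl1, Fzd10, Wnt4, Wnt7b, Wnt9a and Wnt11 among the grey ones; Fzd10 also turns with both other scalings, and Wnt6 with the slide as a block.

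Of the intracellular genes, Ctnnb1, which encodes beta-catenin itself, did not pass the threshold. Its levels were 4.21, 4.28, 4.15 and 4.00 in EGFP+ tubules, 4.16, 4.25, 3.99 and 4.04 in ALL, and 4.14, 4.06, 4.03 and 4.12 in EGFP- tubules, on a probe at chr9:120808854-120808913. The fractions overlapped, and the difference was 0.07 (95% confidence interval -0.15 to 0.29, adjusted p = 0.569). The array measures its transcript and not the stabilised protein. Axin1, the constitutive scaffold of the destruction complex, was 1.27-fold higher (0.35 ± 0.12, adjusted p = 0.0302), a call that was lost without mouse 1 (adjusted p = 0.121), mouse 2 (0.0640) or mouse 4 (0.141) and with no filter on dim probes (0.0723).

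Lef1, Tcf7 and Axin2 were dim throughout and were well above background on no EGFP+ array. Lef1 (chr3:131213273-131213332) had levels of -6.73, -7.26, -7.22 and -7.34 in EGFP+ tubules, -3.42, -4.20, -4.05 and -5.35 in ALL, and -3.29, -4.11, -3.74 and -4.64 in EGFP- tubules. Tcf7 (chr11:52096035-52096094) had levels of -6.06, -7.44, -7.05 and -6.34 in EGFP+ tubules, -3.33, -3.58, -3.79 and -4.66 in ALL, and -3.28, -3.63, -3.55 and -3.80 in EGFP- tubules. EGFP+ arrays of both genes lay below all others. Lef1 was at least 2.47-fold lower (fitted difference -3.19, adjusted p = 1.88e-05) and Tcf7 at least 3.22-fold lower (fitted difference -3.16, adjusted p = 6.3e-06). The further Lef1 probes were well above background on no EGFP+ or EGFP- array and were not tested. The second Tcf7 probe had a bound of at least 1.1-fold lower (fitted difference -1.71, limma adjusted p = 0.00808). Of 7 leukocyte markers, 5 were lower as given above, while Csf1r (-0.26) and Cd68 (0.05) did not pass. Lef1 and Tcf7 are also expressed by lymphocytes, for which no separate list was made. The part of leukocytes in these values was not tested.

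Axin2, the feedback scaffold induced by beta-catenin signalling in many tissues (chr11:108766756-108766815), had levels of -5.64, -5.78, -7.05 and -7.16 in EGFP+ tubules, -4.26, -5.89, -5.17 and -5.53 in ALL, and -4.02, -5.43, -4.67 and -4.28 in EGFP- tubules. It was well above background on 0 EGFP+, 2 ALL and 3 EGFP- arrays, and EGFP+ and EGFP- levels did not overlap. Axin2 was at least 1.57-fold lower in EGFP+ than in EGFP- tubules (fitted difference -1.81 ± 0.46, adjusted p = 0.00491). With normexp background correction Axin2 and Lef1 turned to 0.50 and 0.02 and Tcf7 to -0.04, none past the threshold.

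Against the ALL fraction, which holds EGFP+ tubules as well, 9 Wnt genes were higher in EGFP+ tubules and 11 lower, where 55.3% of all genes tested passed, 30.3% higher and 24.9% lower. A fitted difference of at least 4-fold was seen for 2 higher and 9 lower genes, against 16.1% of all genes tested. Among the lower ones, Dkk3, Lef1 and Tcf7 were bounded at 1.55-fold, 2-fold and 2.66-fold. None of their EGFP+ arrays was well above background. Arrays did not overlap for 21 of the 33 Wnt genes, against 52.4% of all genes tested. This comparison shares the EGFP+ arrays with the one against EGFP-. For the genes with wide differences, fitted EGFP+ minus ALL was 3.23 for Sfrp1, -6.35 for Sfrp2, -5.72 for Wif1, -5.33 for Dkk2, -4.99 for Rspo1, -2.82 for Fzd1 and 1.85 for Fzd4. Sfrp1 was thus 9.41-fold higher in EGFP+ than in ALL and 79.2-fold higher than in EGFP- tubules. Wif1 and Rspo1 were well above background on no EGFP+ array, and their bounds against ALL were at least 15.9-fold and 11.1-fold lower. The mean of ALL lay between those of EGFP+ and EGFP- for 25 of 33 Wnt genes (75.8%) and for 68.4% of all genes tested.

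Other genes of Wnt signalling were taken from 7 lists of pathway roles. Of 81 genes, 73 were tested, in EGFP+ against EGFP- tubules with a median difference of 0.27. Of these, 32 were higher and 20 lower, and 21 did not pass. The share called was 71.2%, against 58.2% of all genes tested (32.3% higher, 25.9% lower, median 0.11). Wls, which carries Wnt ligands to the cell surface (0.65), and Porcn, which adds their lipid (1.03), were higher, while Notum, a secreted enzyme that removes that lipid and so inactivates Wnts, was lower (-3.64, with 3 of 4 EGFP+ arrays well above background). The ligases that remove Frizzleds from the surface were both higher, Rnf43 by 2.35 ± 0.18 (5.09-fold, adjusted p = 4.05e-07) and Znrf3 by 1.60, and the R-spondin receptor Lgr4 had a difference of -0.13 (adjusted p = 0.536). Lgr5 and Lgr6 were not tested.

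Of 12 other receptors and antagonists at the cell surface, 3 were higher and 4 lower, a called share of 58.3% against the 58.2% of all genes. Sostdc1, which blocks Wnts at Lrp receptors and also bone morphogenetic proteins, was 12.3-fold higher (3.62 ± 0.18, adjusted p = 1.21e-08). Lrp4, a relative of Lrp5 and Lrp6, Apcdd1, a membrane antagonist of Wnts, and the receptor kinase Ror1 were lower. Their fitted differences of -5.59, -5.11 and -2.47 rest on EGFP+ values at background, with 1 of 4 EGFP+ arrays well above it for each gene. In the cytoplasmic cascade 10 of 17 were higher and 2 lower (70.6% called), none of them by 4-fold, where 32.3% of all genes tested were higher and 25.9% lower. Frat1 (1.60) and Frat2 (1.54), which bind the kinase Gsk3, and Apc (1.33), the scaffold of the destruction complex, were among the higher ones, and Ctnnbip1, which keeps beta-catenin from Tcf factors, was the lowest (-1.45).

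Nuclear partners of beta-catenin had 7 of 11 higher and 1 lower (72.7% called, against the same background). The corepressors of the Groucho family split, with Tle2 7.35-fold higher (2.88) and Tle4 10.5-fold lower (-3.40). In planar polarity 4 of 14 were higher and 6 lower (71.4% called). Celsr1, an atypical cadherin, was higher (1.99), and Vangl1, a membrane protein of the same system, was lower (-4.04). Prickle2 (-3.44), Daam2 (-2.93), Dchs1 (-2.59) and Fat4 (-2.0) were lower by fitted differences, with only 1 of 4 EGFP+ arrays well above background on the probe used (2 for Daam2). For Dchs1 the EGFP+ array of mouse 1 (-2.89) lay within the range of the EGFP- arrays (-3.27 to -2.52).

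Textbook targets of beta-catenin other than Axin2, Lef1 and Tcf7 had 4 of 13 higher and 6 lower, where 32.3% of all genes tested were higher and 25.9% lower. Sox9, a transcription factor, was at least 111-fold higher, its EGFP+ mean being 1.47 and its signal well above background on none of the EGFP- arrays, and Ephb3, a receptor of ephrins, was 12.2-fold higher (3.61). Ccnd1, the cyclin D1 gene, was 1.79-fold higher (0.84) and Ephb2 1.59-fold higher (0.67). On the lower side were Sp5 (-5.13, 35.0-fold), Myc (fitted difference -4.63, with 2 of 4 EGFP+ arrays well above background), Bmp4 (-2.50, 5.64-fold), Nkd1 (at least 11.2-fold), Tnfrsf19 (at least 6.19-fold) and Cd44 (at least 2.86-fold). These genes have other inputs beside Wnt signalling, and the podocyte, stromal and endothelial markers given above moved in the same direction as the lower ones; their part was not tested.

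**Figure D4:**
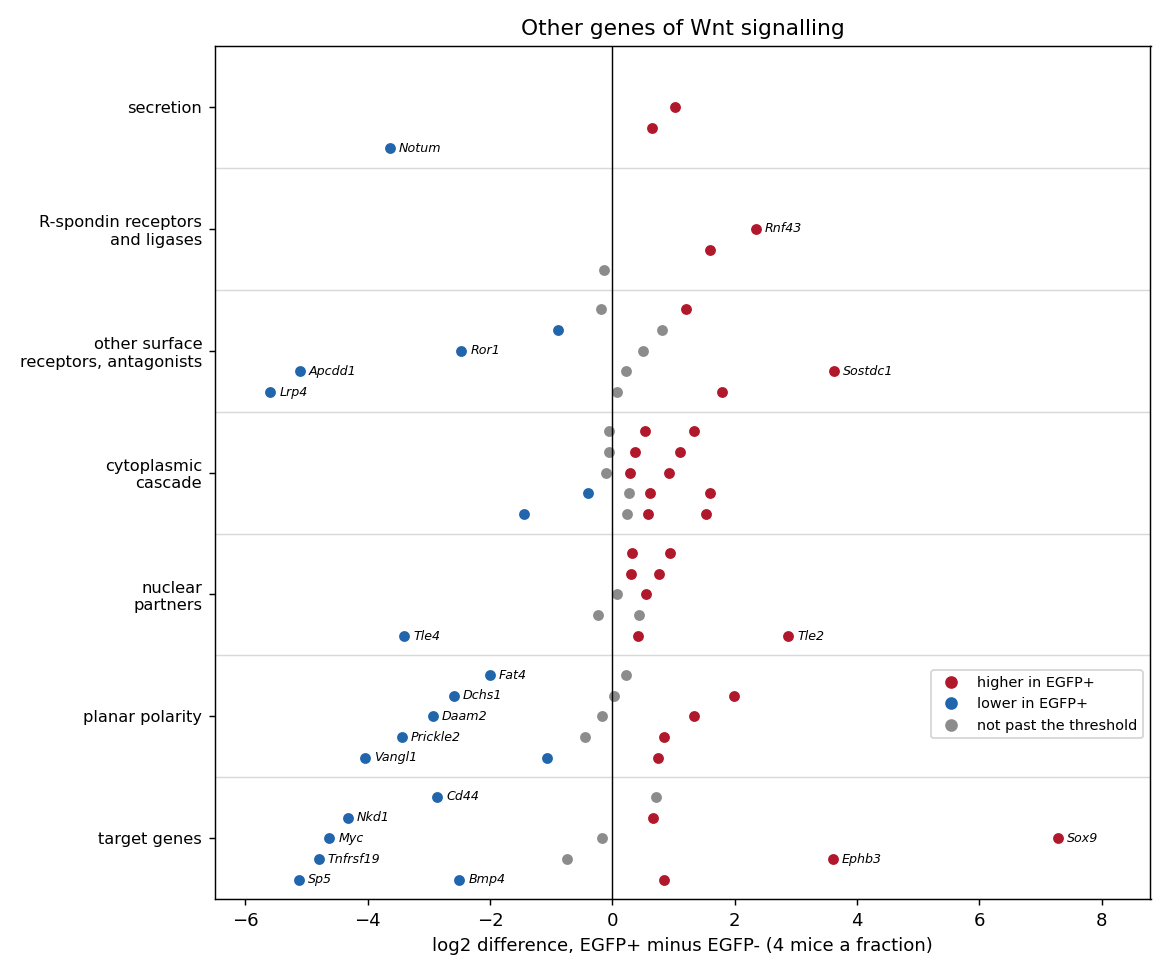
Difference of the 73 tested genes of 7 Wnt pathway lists between EGFP+ and EGFP- tubules (log2, EGFP+ minus EGFP-, 4 mice a fraction); each point is 1 gene, red higher, blue lower and grey not past the threshold, and genes past it by at least 4-fold are named. The cytoplasmic cascade lies close to 0, between -1.45 and 1.60, while target genes run from -5.13 for Sp5 to 7.29 for Sox9.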

How the data were processed

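RNA of 12 tubule samples (3 fractions of 4 mice) had been hybridised to Agilent whole-genome arrays of design 014868 and read with Feature Extraction 9.5.3.1, per the file headers. The deposited intensity values are each spot's processed signal, background-corrected by that software, and its mean and background signals. The value table deposited beside the scanner files was not used here. Of 45018 spots per array, 43379 were not controls and gave 41174 probes; spots with an outlier mark were left out, spots of a probe averaged, and log2 of the deposited intensity was scaled by the array's 75th percentile. Probes were named through accession (24375), current symbol (6301), older symbol (2426) or the name in the file (8072). Each gene was represented by its brightest tested probe. Probe coordinates refer to mm8, per the file headers.

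The tests used limma 3.58.1 in R 4.3.3 (with data.table version 1.17.8), 1 coefficient per fraction over all 12 arrays, Benjamini-Hochberg over all genes tested, threshold 0.05. Sex was tested on each mouse's mean over fractions and on its EGFP+ minus EGFP- difference. Errors with a difference are standard errors. The code was tested on simulated data. Fractions share their mice, so the mouse pairs samples; same-mouse deviations correlated at 0.23 to 0.82. The number of arrays limits the precision. Genes and lists were chosen with earlier results of these data known. All called genes are named, with values in every array for those of at least 4-fold and for Ctnnb1 and Axin2; of the other lists, genes of at least 4-fold and the one furthest each way. Alternatives were other scalings, background corrections, filters, probe rules, blocks by mouse and slide, and leaving out each mouse; fits of each probe alone and of sex within a fraction were added after seeing the data.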

Additional observations from a re-analysis of the deposited data

Results flagged for a closer look

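Among the 99 groups of 4 arrays examined (33 Wnt genes in 3 fractions), 4 held 1 array set apart from the other 3, and chance alone sets about 1 in 20 such groups apart. Axin1 stood at -0.13 in EGFP- tubules of mouse 3, against -0.43, -0.43 and -0.41 in the other mice. Dkk3 stood at -5.86 in EGFP+ tubules of mouse 2, a fraction without any array well above background. Fzd10 stood at -5.49 in EGFP+ tubules of mouse 3, and Wnt5b at -2.34 in EGFP+ tubules of mouse 2, against -2.56 to -2.54 in the others. For Wnt9a the EGFP+ minus EGFP- difference was below 0 in both males (-0.33 and -0.65) and above 0 in both females (0.16 and 0.07). That difference between the sexes, -0.60 as male minus female, did not pass the limma test (adjusted p = 0.419).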

How the results depend on the processing

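Of the 20 called Wnt genes, 13 kept their call in EGFP+ against EGFP- tubules under all 14 alternatives. With normexp background correction 6 genes were lower, against 11 as reported, in both comparisons of EGFP+, 8 passed between the sexes, and the median difference was 0.32. The shares of all genes were not counted with this correction. The differences then turned to 0.50 for Axin2, -0.07 for Ctnnb1, 0.42 for Dkk3, 0.97 for Dkkl1, 0.89 for Fzd10, 0.02 for Lef1, 0.90 for Wnt11, 0.76 for Wnt4, 0.81 for Wnt7b, 0.30 for Wnt9a and 0.31 for Wnt9b. This correction started from the mean signal and added an offset of 50 before the log, while no offset was added to the processed signal. The cause of these turns was not tested. With no filter on dim probes the median was -0.03, over more genes. Fzd10 turned to 0.03 with arrays centred on medians and with quantile normalization, settings that moved the median of all genes from 0.11 to 0.26 and 0.16. Wnt6 turned to -0.20 with slide as a block, and ran from -0.14 to 0.29 when a mouse was left out (-0.13 without mouse 2), and Dkkl1 from -0.49 to 0.01. Leaving out each mouse gave 7 to 8 higher and 11 to 12 lower genes against EGFP-, 8 to 9 and 10 to 11 against ALL, and 24 to 28 higher and 18 to 20 lower pathway genes, with medians of the Wnt genes from -0.43 to -0.27. Fzd2 passed without mouse 4 (-0.70, adjusted p = 0.0242). With the mouse as a replicate block, since the fractions are paired by animal, 9 genes were higher and 14 lower against EGFP-, 10 and 16 against ALL, and the median was -0.31; beyond Frzb, Fzd2 and Wnt11 it changed no call against EGFP-. With slide as a block 9 were higher and 15 lower, Fzd2 (-0.61), Wnt4 (-1.45), Wnt7b (-0.45) and Wnt11 (-0.52) among them. Where no array of a fraction was well above background, signal over background limits the result to a bound.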
